A study of Mus musculus with 6 samples.

Results

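Sp5, Axin2, Lgr5, Nkd1, Notum, Rnf43, Znrf3, Lef1, Tcf7 and Dkk1 are transcriptional targets and factors of the canonical WNT pathway. They were listed by name as the 10 genes examined here, with earlier results of these data known. A gene entered through probe sets whose annotation names that gene alone, and 9 of the 10 genes had such probe sets, 17 in all, among 18194 genes on the array. Tcf7 had none and was not analysed here. Where a gene had several probe sets, the brightest on average stood for it.

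The samples are mouse ovarian surface epithelial cells taken from tumours, digested with trypsin, cultured and collected without passage. All carry the prefix P/K in their titles, which the labels do not spell out, and all come from a mixed strain background. The samples differ in their genotype at the tumour suppressor p53, with 2 arrays for each genotype. Homozygous cells carry the R172H missense mutation on both alleles and came from animals of 4 weeks. Heterozygous cells carry R172H and a wild-type allele and came from animals of 9 and 12 weeks. Wild-type cells express unmutated p53 and came from animals of 9 weeks. Age and homozygosity cannot be told apart in this design. In the homozygous samples another label gives a p53 relative as the mutated gene, and grouping followed the titles. The driver of the mutations is not given. The heterozygous samples differ in age, while for the other pairs nothing says that replicates were separate animals, so p-values measure the spread between these arrays, which may be technical in part.

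In canonical WNT signalling a secreted WNT ligand binds a Frizzled receptor and an LRP co-receptor. Binding halts the destruction of beta-catenin, which then enters the nucleus and joins TCF and LEF proteins on DNA. Many of the genes switched on in this way feed back on the pathway, so their messenger RNA is widely used as a readout of its activity. In the mouse ovary, Lgr5 marks cells of the surface epithelium, the layer from which these cultures were named.

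The stretch just before the start of Sp5 and of Axin2 is shown because these genes stand at the centre of the comparison and TCF and LEF proteins are known to bind CTTTG-containing sites. The letters searched, on both strands, were CTTTGAT (in 3.21% of all 32851 windows of this length in the table), CTTTGTT (in 5.03%), CTTTGAA (in 4.46%) and CTTTGTA (in 3.20%). They share their start and cannot match at the same place on the same strand. Matches are in capitals. Sequences are from RefSeq, build GRCm38.p6, each 250 bases long on the plus strand, 5′ to 3′, for Sp5 at chr2:70474673-70474922 and for Axin2 at chr11:108920099-108920348.
Sp5: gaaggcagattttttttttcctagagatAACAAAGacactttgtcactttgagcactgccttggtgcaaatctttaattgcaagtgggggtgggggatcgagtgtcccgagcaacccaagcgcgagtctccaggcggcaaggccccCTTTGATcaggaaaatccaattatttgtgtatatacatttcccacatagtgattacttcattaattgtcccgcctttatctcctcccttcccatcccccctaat
Axin2: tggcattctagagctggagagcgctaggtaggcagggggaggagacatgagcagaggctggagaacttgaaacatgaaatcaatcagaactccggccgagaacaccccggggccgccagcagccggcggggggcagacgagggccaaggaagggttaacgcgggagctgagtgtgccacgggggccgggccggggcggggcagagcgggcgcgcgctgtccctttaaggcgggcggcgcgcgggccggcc

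The Sp5 window held CTTTGAT on the gene's strand, beginning at position -104 from the start, and the reverse of CTTTGTT at position -222. The Axin2 window held none of these letters. Sequence windows were found for 7 of the 10 genes, 12 windows in all, and matches lay in those of Sp5, Dkk1 and Lef1. Dkk1 held CTTTGAA at -117 and CTTTGTT at -98, and 1 of 4 Lef1 windows held the reverse of CTTTGTA at -147. Of all windows in the table, 14.8% held at least 1 of these motifs and 1.43% held 2 or more matches. A match describes letters only.

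Signals are linear probe set intensities, and differences are on the log2 scale. The background level, the highest of 18 values of a bacterial control gene absent from mouse cells, was 24.5. Array medians were 41.1 to 60.6. Homozygous arrays were unlike the others and unlike one another: the leading principal component (72% of variance) placed array 1 at 134.8 and array 2 at 40.3, against -54.2 to -35.7 for the 4 arrays of the other genotypes. The 3′ minus 5′ log2 signal of the actin control, a sign of RNA quality, was 0.59 and 0.39 in homozygous arrays and 0.66 to 0.96 in the others, and its part in the results was not tested. Wild-type array 2 and heterozygous array 1 were the closest pair, with an SD of their log2 difference of 0.32, against 0.60 within the wild-type pair and 0.55 within the heterozygous pair. In these bulk cultures fewer cells of a type and less RNA per cell cannot be told apart. Cdkn1a, a direct p53 target that encodes the inhibitor p21, had signals of 192 and 111 in homozygous, 1548 and 1437 in heterozygous and 2519 and 2646 in wild-type arrays. It is 1 of 5 p53 targets listed to check the labels. At a limma adjusted p under 0.05, 4 were lower in homozygous than in wild-type cells, beside 2.25% of all genes. The other, Mdm2, had 1136 and 1253 in homozygous and 1192 and 942 in wild-type arrays, a difference of 0.17 ± 0.23 (limma adjusted p 0.653).

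**Figure D1:**
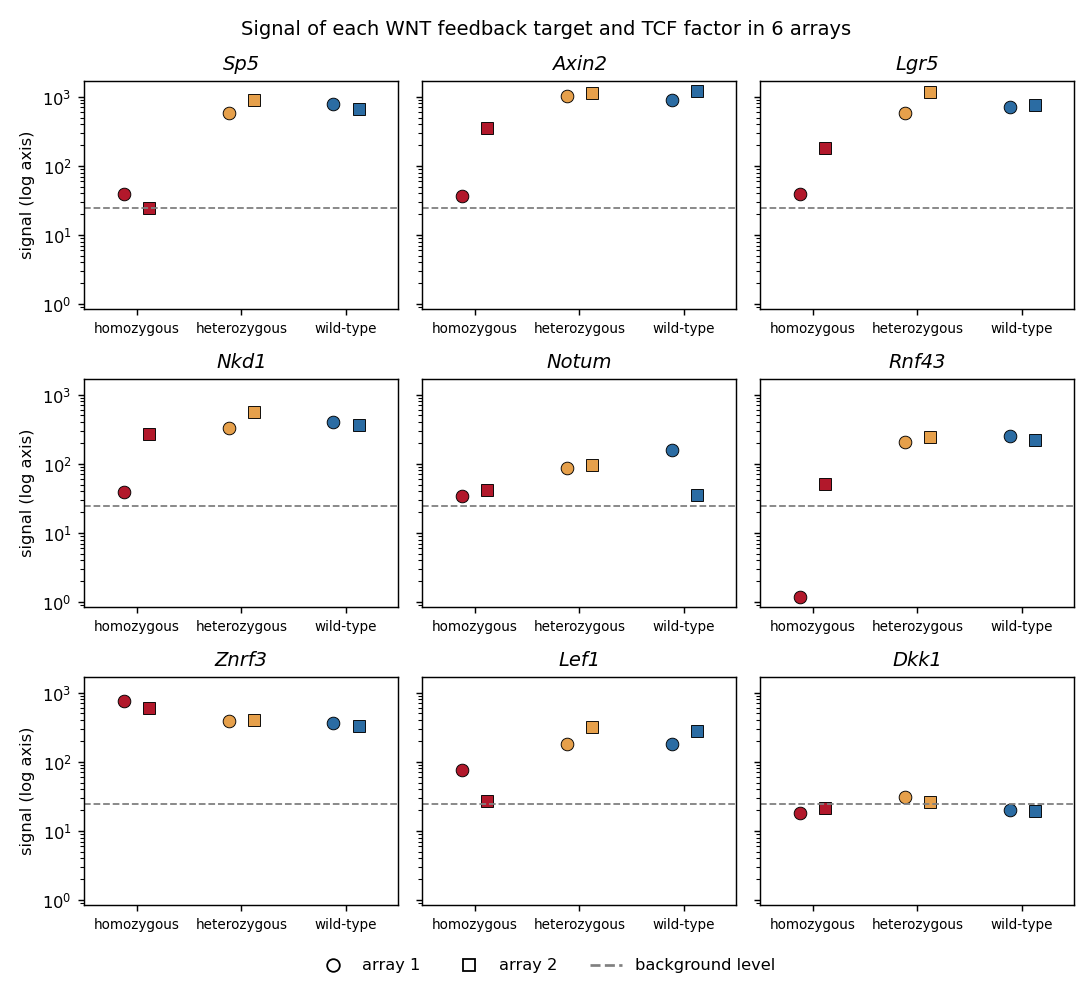
Signal of the brightest probe set of each gene in the 6 arrays, on a log axis, by genotype; circles are array 1, squares array 2 and the dashed line the background level of 24.5. Sp5 lies at 38.6 and 24.2 in homozygous arrays and at 583.6 or more in the other 4, while Axin2, Lgr5, Nkd1 and Rnf43 differ widely between the homozygous arrays.

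Sp5, a zinc finger transcription factor of the SP family, was near the background level in homozygous cells. Its signal was 38.6 and 24.2 in homozygous, 584 and 901 in heterozygous and 782 and 672 in wild-type arrays. Both homozygous arrays were far below all the others and near the background level, with array 2 just under it. Sp5 fell by 4.57 ± 0.36 (limma SE, n = 2 arrays per group) on the log2 scale against wild-type cells, which is 23.7-fold, with an adjusted p of 0.0136. With signals raised to background the difference was -4.56. It was the only tested gene of the list that passed in this comparison: 1 of 8 was called, and it was lower. Of all 10916 tested genes 2.67% were called, 2.25% lower and 0.412% higher.

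The size of the Sp5 difference varied little when arrays were left out, but its call did not always hold. Without wild-type array 1 the difference was -4.46 (adjusted p 0.148), without wild-type array 2 it was -4.68 (0.128), and without either heterozygous array it was -4.57 (0.0679). Without homozygous array 1 it was -4.91, and without array 2 it was -4.23. With 1 homozygous array left, the spread of that group is not measured. It is then taken from the other pairs, whose variance averaged 0.154 in heterozygous and 0.178 in wild-type arrays, against 0.877 in the homozygous pair. For fits without a homozygous array only the difference is given. With the replicate number as a block the adjusted p was 0.0579, with no filter on dim genes 0.0535, and without the close arrays, wild-type 2 and heterozygous 1, it was 0.436.

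Axin2 encodes the scaffold of the complex that destroys beta-catenin and is a widely used negative feedback target of the pathway. Its signal was 36.1 and 355 in homozygous, 1007 and 1142 in heterozygous and 899.5 and 1192 in wild-type arrays. Both homozygous arrays lay below the other 4, but they differed from each other 9.83-fold. The difference from wild-type cells was -3.19 ± 1.05 (SE), with a 95% interval of -5.84 to -0.54 and an adjusted p of 0.128, so it did not pass. Without homozygous array 2 it was -4.84, and without homozygous array 1 it was -1.54.

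Lgr5 is a receptor for R-spondins, secreted proteins that strengthen WNT signals, and marks stem cells in several epithelia. Its signal was 39.7 and 179 in homozygous, 579 and 1159 in heterozygous and 705 and 760.1 in wild-type arrays. Again the homozygous arrays did not overlap the others, and array 1 was the lower. The difference from wild-type cells was -3.12 ± 0.77, with a 95% interval of -5.06 to -1.18 and an adjusted p of 0.085. Without homozygous array 2 it was -4.20, and without array 1 it was -2.03.

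Whether Axin2 and Lgr5 share the fall of Sp5 was asked of their ratio within each array, which cancels any scaling of the array. The log2 ratio of Sp5 over Axin2 was 0.10 and -3.88 in homozygous, -0.79 and -0.34 in heterozygous and -0.20 and -0.83 in wild-type arrays. In homozygous array 1 all 3 genes had signals of 36.1 to 39.7, close to the background level of 24.5, so a ratio near 0 there may only reflect that floor. In homozygous array 2 Sp5 was under background, so its ratio there is a bound and not an exact value, while Axin2 was well above background. The mean ratio was lower by 1.38 in homozygous than in wild-type arrays, with a two-sided exact permutation p of 1, where 2 arrays against 2 cannot go below 0.333.

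For Sp5 over Lgr5 the log2 ratio was -0.04 and -2.89 in homozygous, 0.01 and -0.36 in heterozygous and 0.15 and -0.18 in wild-type arrays. The same limits hold, with homozygous array 1 near the floor for both genes and Sp5 under background in array 2. The difference from wild-type arrays was -1.45, with an exact permutation p of 0.667. Against heterozygous arrays the differences were -1.32 for Axin2 (p of 1 by the same exact test) and -1.29 for Lgr5 (p of 0.667 by the same exact test). All these values rest on homozygous array 2: without it the ratio of Sp5 over Axin2 differed by 0.61 from wild-type and 0.66 from heterozygous arrays, and that of Sp5 over Lgr5 by -0.03 and 0.13. Without array 1 the 4 differences lay between -3.36 and -2.71. With the mean of all probe sets, which adds dim ones, the differences from wild-type arrays were -2.56 for Axin2 and -2.88 for Lgr5 (exact permutation p 0.333). Against heterozygous arrays they were -1.87 for Axin2 (exact permutation p 0.667) and -2.70 for Lgr5 (0.333). Sp5 has a single probe set, while averaging in dim ones shrinks the falls of Axin2 and Lgr5. These larger differences therefore cannot tell whether the fall is shared. Sp5 was near or under background in both homozygous arrays. Axin2 and Lgr5 were near it in array 1 and kept signals of 355 and 179 in array 2, and how alike the 3 genes were in array 1 cannot be read so close to background.

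**Figure D2:**
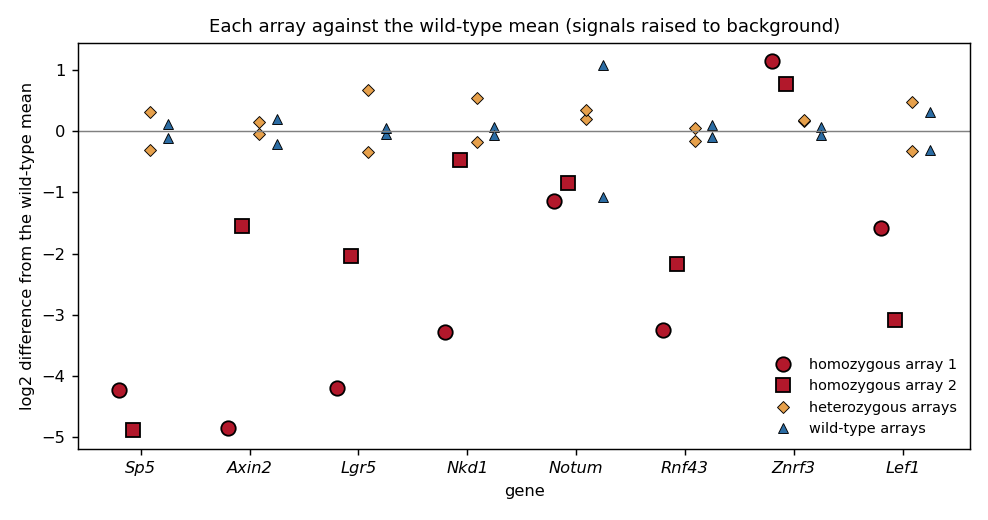
Log2 difference of every array from the wild-type mean for the 8 tested genes, with signals raised to the background level; red circles and squares are homozygous arrays 1 and 2, diamonds heterozygous and triangles wild-type arrays. Sp5 is more than 4 log2 units low in both homozygous arrays, Axin2 at -4.84 and -1.54, and Znrf3 lies above the wild-type mean.

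Set against the wild-type mean, homozygous array 1 was 18.8-fold lower for Sp5, 28.7-fold for Axin2 and 18.4-fold for Lgr5. Homozygous array 2 was 2.92-fold lower for Axin2 and 4.09-fold for Lgr5, and for Sp5, under background there, the log2 difference was -4.89 with the signal raised to background. Of the 6 tested genes of the list that were lower in both homozygous than in both wild-type arrays, 4 were lowest in array 1, and Sp5 and Lef1 were lowest in array 2. Among the 3690 tested genes with the same pattern, 70.0% were lower in array 1 than in array 2, so this order is common to these arrays. The median log2 gap of array 2 over array 1 was 2.48 for the 6 genes and 0.29 for the 3690, and the listed genes are part of both sets.

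Of 5 lists of markers of other cell types, the granulosa and theca list and the fibroblast list also differed widely between the homozygous arrays. The summed signal of 10 granulosa and theca cell genes was 682 in homozygous array 1 and 6844 in array 2, and between 5290 and 9892 in the other arrays, with Cyp17a1 under background in all arrays and Amh and Fshr at 35.8 or less. Much of the sum in homozygous array 2 was Inhbb, an inhibin subunit, at 3662 against 1382 to 1626 in the other genotypes, while Star, which carries cholesterol into mitochondria, was at 592 against 1588 to 4144 and Inha at 246 against 562 to 2322. Their part in the Axin2 and Lgr5 values was not tested. The summed signal of 7 fibroblast and stroma genes was 22612 and 56361 in homozygous arrays and 22689 to 39369 in the others. Much of it in homozygous arrays was Col1a2, at 21105 and 32905 against 5417 to 20710 in the others. The gap between homozygous arrays 1 and 2 also held Dcn, at 865 and 15441, and Col1a1, at 491 and 6189. Lum was at 2.15, under background, and at 1566. Pdgfra alone was the higher in array 1, at 130 against 103. Of the 7 genes, 5 were lower and 2 higher in homozygous than in wild-type cells, with a median difference of -2.07.

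The remaining inhibitors did not pass singly. Rnf43 is a membrane ubiquitin ligase that removes Frizzled receptors from the cell surface. Its signal was 1.18 and 51.7 in homozygous, 208 and 241 in heterozygous and 249.6 and 217 in wild-type arrays. Both homozygous arrays were below the others, and array 1 was under background. The difference from wild-type cells was -4.90 ± 1.69 with an adjusted p of 0.14, and -2.71 with signals raised to background, where the adjusted p was 0.0287. Raising replaces the signal of array 1 and so narrows the spread of the homozygous pair. That smaller adjusted p therefore rests on a set value and not on the measured spread. Without homozygous array 1 the difference was -2.17. Array 1 alone, raised to background, lay -3.25 from the wild-type mean.

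Znrf3, the closest relative of Rnf43 with the same action on Frizzled, had the opposite sign. Its signal was 768 and 591 in homozygous, 390.3 and 397 in heterozygous and 365 and 331 in wild-type arrays. Each homozygous array was above all the others. The difference from wild-type cells was 0.95 ± 0.24, with a 95% interval of 0.34 to 1.56 and an adjusted p of 0.0878. It was 1.26 with arrays centred on their medians and 1.02 with quantile-normalised arrays. Without homozygous array 2 it was 1.14 and without homozygous array 1 it was 0.76. Without wild-type array 1 it was 1.02 and without wild-type array 2 it was 0.88. With the mean of its probe sets it was 0.85 (adjusted p 0.468).

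Nkd1 encodes an inhibitor that binds Dishevelled, the relay below the receptors. Its signal was 39.2 and 273 in homozygous, 335 and 553 in heterozygous and 397 and 362 in wild-type arrays. The homozygous arrays were lower, array 2 only slightly, and the difference from wild-type cells was -1.88 ± 0.92 (adjusted p 0.238). Without homozygous array 2 it was -3.28, and without array 1 it was -0.48.

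Notum encodes a secreted enzyme that inactivates WNT ligands by removing their lipid. Its signal was 33.7 and 41.6 in homozygous, 85.7 and 94.6 in heterozygous and 158 and 35.2 in wild-type arrays. Wild-type array 2 fell among the homozygous arrays, so these groups overlap. The difference of -0.99 ± 0.71 (adjusted p 0.388) from wild-type cells was 0.09 without wild-type array 1.

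Dkk1 encodes a secreted antagonist of the LRP co-receptors. Its signal was 17.9 and 21.4 in homozygous, 30.7 and 26.2 in heterozygous and 20.1 and 19.6 in wild-type arrays. It stayed under the background level in both homozygous and both wild-type arrays and did not reach the filter for testing, so no fold is given.

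Lef1, the partner of beta-catenin on DNA and itself a WNT target, was the only TCF factor of the list with a probe set that names 1 gene alone. Its signal was 76.0 and 26.9 in homozygous, 182 and 318 in heterozygous and 184 and 282 in wild-type arrays. The homozygous arrays did not overlap the others, and array 2 was the lower, as for Sp5. The difference from wild-type cells was -2.33 ± 0.59, with an adjusted p of 0.0889. It was -3.08 without homozygous array 1, while the mean of both Lef1 probe sets gave -0.11. Lef1 is also expressed by T lymphocytes. Of 8 T lymphocyte markers with a probe set, Cd3d, Cd3g, Cd2, Cd4 and Cd28 were under background in all 6 arrays, and the summed signal was 315 and 297 in homozygous and 327 to 450.4 in the other arrays.

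**Figure D3:**
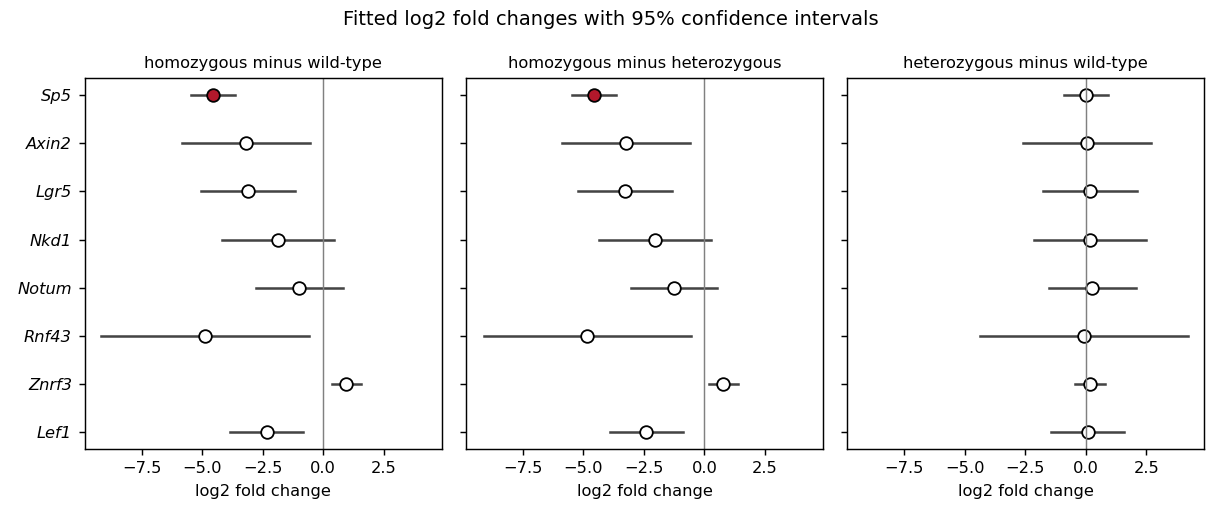
Fitted log2 fold changes of the 8 tested genes in 3 comparisons, with 95% intervals from limma; filled points passed at an adjusted p under 0.05. Sp5 passes in both comparisons with homozygous cells, at -4.57 in each, and all heterozygous minus wild-type intervals span 0.

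Across the list, homozygous minus wild-type differences were negative for 7 of 8 tested genes, with a median of -2.72, against a median of -0.09 over all 10916 tested genes, of which 54.6% were negative. Arrays did not overlap for 6 lower and 1 higher gene of the list, where the background was 33.8% and 27.4% of all genes. At an unadjusted p under 0.05 there were 5 lower and 1 higher, with 28.9% of all genes past that level, 17.2% lower and 11.7% higher. Tested genes had to be bright in at least some arrays, and the list is short and was chosen with results known. Centring each array on its median moved the median of all genes to 0.22 and that of the list to -2.42.

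The comparison of homozygous with heterozygous cells shares its homozygous arrays with the one above. Sp5 fell by 4.57 ± 0.36 with an adjusted p of 0.015, and 1 of 8 tested genes was called. Of all tested genes 4.09% were called, 3.22% lower and 0.870% higher. The difference was -3.24 ± 1.05 for Axin2 (adjusted p 0.116), -3.28 ± 0.77 for Lgr5 (0.0736) and -2.41 ± 0.59 for Lef1 (0.0793). Rnf43 differed by -4.84 ± 1.69 (adjusted p 0.134), or by -2.65 with signals raised to background (0.0278). There the raised value of homozygous array 1 again narrows the spread. For Nkd1 the value was -2.06 ± 0.92, for Notum -1.27 ± 0.71 and for Znrf3 0.78 ± 0.24, with adjusted p of 0.199, 0.279 and 0.109. The list had a median of -2.83 against -0.08 over all genes. Arrays did not overlap for 7 lower and 1 higher gene, with 34.2% and 28.2% of all genes. At an unadjusted p under 0.05 there were 5 lower and 1 higher, with 30.6% of all genes, 18.2% lower and 12.5% higher.

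The Sp5 call of this comparison ended without either wild-type array (-4.57, adjusted p 0.0674), without heterozygous array 1 (-4.88, 0.112) or array 2 (-4.26, 0.187), and with the replicate block (0.0533). Without homozygous array 1 the difference was -1.60 for Axin2, -3.16 for Lef1, -2.195 for Lgr5 and only -0.66 for Nkd1. For Rnf43, for which array 1 alone is under background, it was -2.11. Without homozygous array 2 the difference was -4.89 for Axin2, -1.66 for Lef1, -4.37 for Lgr5 and -3.46 for Nkd1.

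Heterozygous cells, which carry R172H beside a wild-type allele, gave no call against wild-type cells in these genes. None of the 8 tested genes passed, with 0% of all genes called by limma, and at an unadjusted p under 0.05 there were 0 of 8 and 71 of 10916 genes, or 0.650% (0.348% lower and 0.302% higher). Sp5 differed by 0.00 ± 0.36, with a 95% interval of -0.90 to 0.90. Axin2 differed by 0.05 ± 1.05 and Lgr5 by 0.16 ± 0.77, with intervals of -2.60 to 2.70 and -1.78 to 2.10, which leaves room for changes of several fold. Znrf3 was higher in both heterozygous arrays, by 0.18 ± 0.24 (adjusted p of 1), where arrays not overlapping made up 12.8% of all genes lower and 13.2% higher. The median of the list was 0.12.

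Other probe sets of these genes were dimmer. The second Lgr5 probe set was under background in all 6 arrays, and that of Axin2 in 4, with 33.3 and 26.6 in the heterozygous arrays. The second Nkd1 probe set gave 18.5 and 149.7 in homozygous, 169 and 223 in heterozygous and 142 and 221 in wild-type arrays, a difference of -1.75 from wild-type cells beside -1.88 for the brightest, though homozygous array 2 overlapped the wild-type arrays. The other two Nkd1 probe sets differed by -0.26 and 0.10. The second Lef1 probe set gave 17.3 and 46.1 in homozygous, 23.8 and 37.6 in heterozygous and 44.9 and 0.955 in wild-type arrays, and so did not repeat the lower signal of the first. That of Znrf3 was above background in homozygous array 1 alone, at 49.8. With the mean of all probe sets the differences from wild-type cells were -2.01 for Axin2, -1.69 for Lgr5 and -0.95 for Nkd1. Sp5, Rnf43 and Notum have a single probe set.

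Other genes of the pathway, listed under 119 names in 7 lists, some of them older and newer names of the same gene, were examined for context. Of 78 tested, 0 were called by limma in homozygous against wild-type cells, where 2.67% of all genes were called. At an unadjusted p under 0.05 there were 11 lower and 9 higher of the 78, beside 17.2% and 11.7% of all genes, and their median was -0.09, as over all genes. Against heterozygous cells 0 were called as well, with 9 lower and 7 higher at that level beside 18.2% and 12.5% of all genes, and 0 were called in heterozygous against wild-type cells, with 1 at that level beside 0.650% of all genes. Within each list the genes with the highest mean signal are given, with further WNT ligands, receptors and transducers named beside them.

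Among WNT ligands the median difference from wild-type cells was -0.60 over 9 tested genes. Wnt4, a ligand needed for ovary development, had signals of 1154 and 8485 in homozygous and 3078 and 5657 in wild-type arrays. Wnt5a, a ligand of the branch that does not use beta-catenin, had 519 and 903 against 6155 and 1551, and Wnt9a had 250.2 and 911 against 1530.2 and 2210. Wnt5b had 217 and 615 against 171 and 323. In all 4 of these genes homozygous array 1 was the lower, as in Axin2 and Lgr5 and in 52.7% of all tested genes. Of the other tested ligands, Wnt2 and Wnt11 were also lower in array 1, while Wnt6, Wnt7b and Wnt10a were lower in array 2.

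R-spondins and their receptors act with Lgr5. Rspo1, the R-spondin that directs ovary development, had signals of 41.5 and 896 in homozygous, 4586 and 5731 in heterozygous and 4171 and 4596 in wild-type arrays. Both homozygous arrays were far below the rest, array 1 the lower, and the difference from wild-type cells was -4.51 ± 1.39 (adjusted p 0.117). Lgr4, a receptor related to Lgr5, had 1992 and 2327 in homozygous and 2924 and 3050.4 in wild-type arrays, a difference of -0.47 ± 0.24 (adjusted p 0.256). Lgr6, another relative of Lgr5, had 858 and 246 in homozygous and 82.8 and 116 in wild-type arrays, a difference of 2.23 ± 0.62 (adjusted p 0.103).

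The 13 tested receptors had a median of 0.04. They ran from -2.83 ± 1.43 for Fzd3 (adjusted p 0.248) to 2.06 ± 0.38 for Fzd2 (0.0575). Fzd7, a Frizzled receptor, differed by 0.14, Fzd6 by 0.46, Ryk by 0.04 and Ptk7 by -0.49. Among 7 inhibitors (median -0.82), the membrane protein Apcdd1 had 291 and 1563 in homozygous and 2294 and 617 in wild-type arrays. Frzb, a secreted Frizzled decoy, had 37.0 and 3275 against 267 and 230.2, so the homozygous arrays lay on both sides of the wild-type ones. Dkk3 differed by -1.27 ± 0.53 and Sfrp4 by -0.48 ± 0.49.

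None of the core genes passed. The 14 tested cytoplasmic transducers had a median of 0.07, with Ctnnb1, which encodes beta-catenin, at 16082 and 19029 in homozygous and 23022 and 26179 in wild-type arrays, a difference of -0.49 ± 0.23 (adjusted p 0.219). Csnk1a1, a kinase that primes beta-catenin for destruction, differed by -0.05, Tnks2, which promotes breakdown of Axin proteins, by 0.20 and Csnk1d by -0.12. Over the tested transducers the differences ran from -1.01 ± 0.21 for Gsk3b (adjusted p 0.0678) to 0.57 ± 0.29 for Csnk1e (0.25). The 14 nuclear partners had a median of -0.04, with the corepressors Ctbp1 at 0.08, Ctbp2 at 0.05 and Tle3 at -0.85 ± 0.28 (adjusted p 0.128), and the deacetylase Hdac1 at 0.88 ± 0.22 (adjusted p 0.0857). Of the further TCF factors, Tcf7l1 differed by 0.14 ± 0.35 (adjusted p 0.804) and Tcf7l2 by -1.13 ± 0.40 (adjusted p 0.146). Tcf7l2 had 348 and 198 in homozygous, 519 and 371 in heterozygous and 705 and 468 in wild-type arrays.

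Of 18 other reported WNT targets, 9 were lower and 9 higher in homozygous than in wild-type cells, with a median of 0.00. Cd44, an adhesion receptor, had signals of 11587 and 5011 in homozygous and 1614 and 1933 in wild-type arrays, a difference of 2.11 ± 0.43 (adjusted p 0.0664). Id2, an inhibitor of helix-loop-helix factors, differed by 1.19 ± 0.44 and Sox4 by -0.33 ± 0.33. Ccnd1, cyclin D1, had 7776 and 493 in homozygous and 873 and 1859 in wild-type arrays, so its homozygous arrays lay on both sides.

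**Figure D4:**
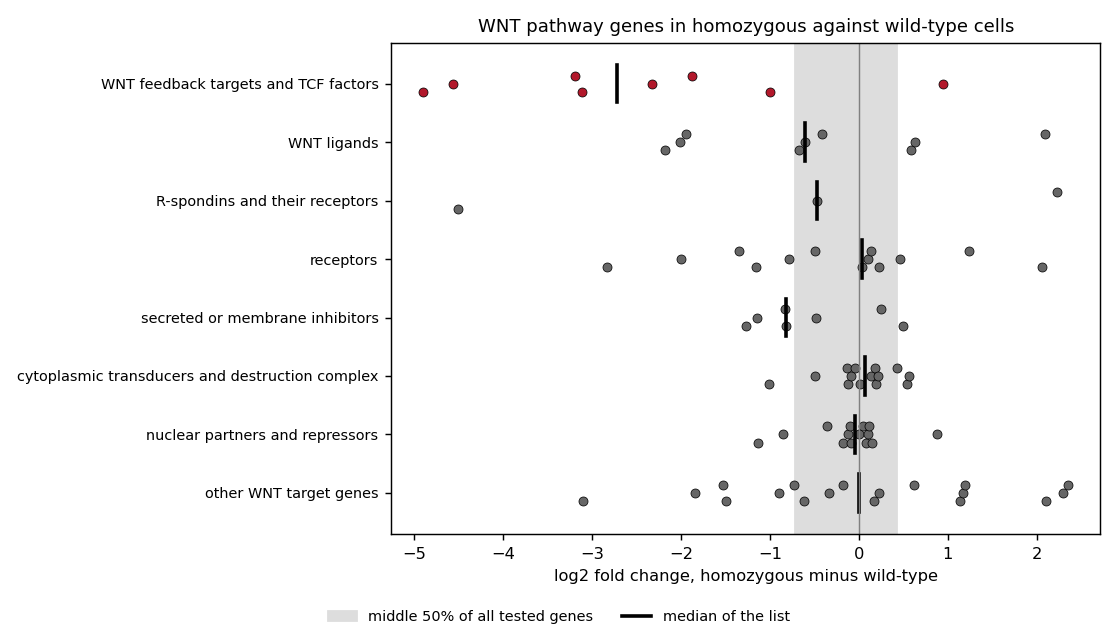
Log2 fold change of homozygous minus wild-type cells for each tested gene of the 10 named genes (red) and of 7 further pathway lists (grey); bars are list medians and the shaded band the middle 50% of all tested genes, from -0.72 to 0.43. The named genes have a median of -2.72, and the lists of transducers, nuclear partners and other targets lie around 0.

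The tested genes whose log2 signal followed Sp5 most closely over the 6 arrays were Sgcb (Pearson r 0.998), which encodes a sarcoglycan, Txnrd2 (0.997), a mitochondrial thioredoxin reductase, and the metallothionein Mt1 (0.997). For Axin2 they were the potassium channel gene Kcnd2 (0.999), E330013P04Rik (0.998) and Gbp6 (0.998), and for Lgr5 the sialyltransferase gene St3gal1 (0.998), Chmp4b (0.998) and Unc119b (0.997). With the homozygous arrays apart from the rest such values are common: 1099, 1435 and 1637 genes had an r over 0.9 with Sp5, Axin2 and Lgr5. Mt1 had signals of 1290.0 and 1036 in homozygous, 17861 and 32484 in heterozygous and 32180 and 21219 in wild-type arrays.

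The labelled cell type was checked against 12 genes typical of ovarian surface and mesothelial cells, all of which reached the filter; 2 of them, Lhx9 and Upk1b, were called lower in homozygous than in wild-type cells, where 2.25% of all genes were. Called lower as well were 3 of 8 tested macrophage genes, 3 of 4 endothelial, 1 of 7 fibroblast and 0 of 6 granulosa and theca genes, and none of any of these lists was called higher. The summed signal of the 12 ovarian surface and mesothelial genes was 56660 and 59038 in homozygous arrays and 135880 to 197970 in the others. Of the 12, 11 were lower in homozygous than in wild-type cells and 1, Krt18, was higher. Krt18 had 25436 and 5623 in homozygous arrays and 6247 to 12233 in the others. It made up much of the sum in homozygous array 1, so the likeness of the 2 homozygous sums depends on it. Lhx9, a transcription factor of the gonadal surface, had 68.9 and 113 in homozygous and 5271 and 4673 in wild-type arrays, and Aldh1a2, which makes retinoic acid, was under background in homozygous array 1, at 1.06. These sums and the WNT target Sp5 were low in the same arrays, and their part in the values of Sp5, Axin2 and Lgr5 was not tested. For 11 macrophage genes the summed signal was 487 and 695 in homozygous and 2460 to 5447 in the other arrays. For 9 endothelial genes it was 2038 and 2908 against 9210 to 11044. Much of the endothelial sum was Esam, at 1791 and 2610 in homozygous and 6836 to 8168 in the other arrays. Esam, Kdr and Icam2 were the 3 endothelial genes called lower. Eng differed by 0.20 ± 0.26 from wild-type cells. Pecam1, Cdh5, Tek and Emcn were at 55.8 or less in every array, and Tie1 was under background in all arrays. The part of these lists in the values of the WNT genes was not tested either.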

How the data were processed

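Total RNA from 6 samples was hybridised to single-colour Affymetrix mouse arrays. The authors deposited 1 table of linear probe set intensities for 45101 probe sets. The submitters' processing notes name RMA, with no version, but the deposited intensities have unequal quantiles and a mean of 500.003 to 500.004 over the middle 96% of probe sets in every array, the form of MAS 5.0 signals. Depth has no meaning for arrays, whose number limits the precision. Log2 was taken with no offset and no further normalisation. Of the probe sets, 34958 named 1 gene symbol, 932 several and 9211 none in the platform annotation; symbols were updated by Entrez identifier for 34754. Genes at or above the 40th percentile of mean signal (geometric mean 60.3) were tested.

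Linear models with 3 group means and no covariate were fitted to all 6 arrays with limma 3.58.1 in R 4.3.3 (lmFit and eBayes, 3 residual and 2.26 prior degrees of freedom). The spread is pooled over groups, while the variance within a pair averaged 0.877 in homozygous, 0.154 in heterozygous and 0.178 in wild-type arrays. The threshold was an adjusted p of 0.05, by the Benjamini-Hochberg method over every tested gene. Ratios were tested by exact permutation of arrays, for 4 differences, each with the signals as deposited, raised to background and averaged over probe sets. The fit was tested on simulated data. Alternatives were the filter, scaling, a floor at background, the mean of probe sets, 2 groups only, unequal spread, a replicate block and leaving out arrays. Plots used matplotlib 3.10.9 under Python 3.11.15.

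The genes, lists and tests were chosen with earlier results of these data known. All 10 listed genes are named, with, per pathway list, called genes and up to 4 with the highest mean signal. Cdkn1a, Mdm2, Lhx9, Upk1b, Aldh1a2, Krt18, Fzd2, Fzd3, Gsk3b, Csnk1e, Tcf7l1, Tcf7l2 and the dimmer WNT ligands were named after their values were seen. So were the T lymphocyte, granulosa, endothelial and fibroblast markers. The p53 transcript was not analysed here.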

Additional observations from a re-analysis of the deposited data

How the results depend on the processing

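The number of the named genes called, 1 in each comparison with homozygous cells, was 0 with no filter, with the filter at the 60th percentile (where Sp5 is not tested and 2 of the genes are), without both close arrays, with the replicate block and with only the 2 groups compared; it was 2 with signals raised to background. Leaving out each array in turn gave 0 to 6 against both other genotypes, the higher counts coming without a homozygous array. A group left with 1 array is assumed to vary like the others. In heterozygous against wild-type cells the number of the named genes called was 0 under every alternative. The gene added with signals raised to background was Rnf43, whose spread in homozygous arrays that floor narrows. Calls over all genes tested against wild-type cells, 291 of 10916 here, were 0 with the block, with no filter (18194 genes), with the 2 groups only, without both close arrays and without any one wild-type or heterozygous array, 673 without homozygous array 1 and 2663 without array 2, 686 with signals raised to background, 190 with the mean of probe sets and 194 with unequal spread; against heterozygous cells, 446 here, they were 0 to 2841 without single arrays, 17 with no filter, 19 with the block, 9 with the 2 groups only, 0 without both close arrays, 809 with signals raised to background, 281 with the mean of probe sets and 293 with unequal spread. Replicate numbers were not shown to pair the samples: the differences of array 1 minus array 2 correlated across genes at -0.30 between wild-type and heterozygous, -0.10 between wild-type and homozygous and 0.16 between heterozygous and homozygous pairs.

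Directions in homozygous cells held under each alternative that gave a value, except Notum against wild-type cells, which ran from -2.08 to 0.09 without single arrays; the filter at the 60th percentile gave values for Axin2 and Znrf3 only, and raising signals to background gave none for Notum. Ratios in homozygous arrays are limited by signals near or under background. The ratio of Sp5 over Axin2 ran from -3.36 to 0.61 against wild-type and -3.31 to 0.66 against heterozygous arrays without single arrays, and that of Sp5 over Lgr5 from -2.71 to 0.13 against heterozygous arrays. The small differences between heterozygous and wild-type cells changed sign: without single arrays Sp5 ran from -0.313 to 0.313, Axin2 from -0.153 to 0.254, Lgr5 from -0.338 to 0.664, Nkd1 from -0.180 to 0.544, Notum from -0.812 to 1.356, Rnf43 from -0.167 to 0.051 and Lef1 from -0.323 to 0.482. Rnf43 was 0.025 with median-centred arrays, Znrf3 -0.37 with the mean of probe sets and Notum -0.74 without both close arrays. The cause was not tested.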
